A study of Mus musculus with 6 samples.

Results

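Silencing of Stat3 in fibroblasts cultured from mammary tumours (cancer-associated fibroblasts, CAFs) was examined for its effect on transcripts of the interleukin 1 (IL-1) family. Its members were taken by gene symbol from a fixed list of 10 ligands, inhibitors and receptors, and all 10 were present among the 24015 symbols of the count table. They are the ligands Il1a, Il1b, Il33 and Il18, the receptor antagonist Il1rn, the receptor chains Il1r1, Il1rap and Il1rl1, the decoy receptor Il1r2 and the soluble inhibitor Il18bp. Of these, 9 passed the filter on low counts and Il1b did not. The cells were cultured from mammary tumours of NeuT mice, whose mammary epithelium carries an activated rat neu oncogene, on a BalbC background. The samples comprised 3 cultures given nanoparticles with anti-Stat3 siRNA and 3 given nanoparticles with control siRNA, all at 1 ug/mL for 72 hours, and poly(A) RNA was sequenced. The study set silenced against unsilenced CAFs to find STAT3 targets. Age, passage and any pooling of animals are not given in the sources used here, and silencing by siRNA leaves part of the transcript.

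IL-1α and IL-1β signal through IL-1R1 together with the accessory chain IL-1RAP, which recruits MYD88 and IRAK kinases and activates NF-κB and MAP kinases. IL-33 uses ST2, the product of Il1rl1, with the same accessory chain, and IL-18 uses a receptor pair of its own. The family carries its own brakes: IL-1RN occupies IL-1R1 without signalling, IL-1R2 binds IL-1 without a signalling domain, secreted ST2 captures IL-33 and IL-18BP captures IL-18. In fibroblasts IL-1 is a known inducer of IL-6, LIF, chemokines and matrix metalloproteinases, and in pancreatic tumours it is known to drive the inflammatory fibroblast state through LIF and STAT3. Gene-level counts do not separate membrane-bound from secreted receptor isoforms.

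Promoter windows are shown for the members called in at least 1 test below (Il33, Il1r1 and Il18bp) and for Il1r2, the only member whose window held a STAT motif. They come from RefSeq (GRCm38.p6) and run, 5′ to 3′, over 250 bases before to 50 after each annotated start. All 10 members matched the promoter table, with 15 windows in all. They were searched on both strands for a STAT motif (TTCNNNGAA, its own reverse complement), an interferon response element core (GAAANNGAA) and a κB core (GGGANTTTC); the first and second can share bases. Of the 15 windows, 1 held the STAT motif, 1 the interferon core and 0 the κB core, against 8.30%, 8.56% and 1.11% of 32851 promoter windows of the same length. The capitals in the Il1r2 window mark its STAT match, whose first base lies at -111 from the start. The windows of Il33, Il1r1 and Il18bp held none of the 3 motifs and are in lower case throughout. The interferon core lay in the Il1rap window, 20 bases after the start. A match describes letters only, and their absence from these windows says nothing of factor binding.
Il33 start site 1, chr19:29924863-29925162, plus strand: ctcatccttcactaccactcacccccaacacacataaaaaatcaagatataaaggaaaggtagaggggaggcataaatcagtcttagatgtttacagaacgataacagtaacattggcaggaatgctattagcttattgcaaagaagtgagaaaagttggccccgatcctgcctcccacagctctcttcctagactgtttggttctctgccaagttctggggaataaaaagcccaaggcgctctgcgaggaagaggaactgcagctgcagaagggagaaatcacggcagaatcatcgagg
Il33 start site 2, chr19:29945540-29945839, plus strand: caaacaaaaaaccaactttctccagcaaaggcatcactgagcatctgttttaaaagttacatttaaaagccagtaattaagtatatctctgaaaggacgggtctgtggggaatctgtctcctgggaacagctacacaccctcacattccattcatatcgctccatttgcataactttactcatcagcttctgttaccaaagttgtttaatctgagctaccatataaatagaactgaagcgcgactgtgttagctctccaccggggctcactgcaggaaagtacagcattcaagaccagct
Il1r1 start site 1, chr1:40224830-40225129, plus strand: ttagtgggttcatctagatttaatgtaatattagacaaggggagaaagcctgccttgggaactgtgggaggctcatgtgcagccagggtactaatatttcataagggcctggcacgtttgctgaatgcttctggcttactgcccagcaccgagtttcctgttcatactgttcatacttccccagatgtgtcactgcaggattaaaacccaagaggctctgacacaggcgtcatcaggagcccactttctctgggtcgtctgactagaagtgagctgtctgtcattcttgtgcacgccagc
Il1r1 start site 2, chr1:40266336-40266635, plus strand: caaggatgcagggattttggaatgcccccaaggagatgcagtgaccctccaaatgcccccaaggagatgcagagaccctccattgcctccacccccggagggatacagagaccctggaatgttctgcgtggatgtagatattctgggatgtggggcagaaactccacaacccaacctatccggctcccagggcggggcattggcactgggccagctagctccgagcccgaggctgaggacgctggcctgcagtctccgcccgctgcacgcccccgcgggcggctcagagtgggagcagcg
Il18bp, chr7:102018183-102018482, minus strand: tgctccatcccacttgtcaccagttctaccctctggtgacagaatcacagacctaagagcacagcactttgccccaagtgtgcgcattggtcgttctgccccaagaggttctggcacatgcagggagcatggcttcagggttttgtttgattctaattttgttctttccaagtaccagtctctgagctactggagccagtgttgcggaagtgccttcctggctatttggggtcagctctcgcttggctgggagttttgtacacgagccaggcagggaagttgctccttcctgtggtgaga
Il1r2, chr1:40085843-40086142, plus strand: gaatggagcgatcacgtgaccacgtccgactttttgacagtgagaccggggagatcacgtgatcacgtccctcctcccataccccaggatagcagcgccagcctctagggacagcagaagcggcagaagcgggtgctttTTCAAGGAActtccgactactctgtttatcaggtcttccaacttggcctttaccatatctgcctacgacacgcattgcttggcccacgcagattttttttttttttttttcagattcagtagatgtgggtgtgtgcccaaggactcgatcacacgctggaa

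The libraries held 12998168 to 16043022 counts with anti-Stat3 siRNA and 14676958 to 18683852 with control siRNA. Stat3, the target, was lower in each silenced sample, at 34.7, 81.9 and 78.9 CPM with anti-Stat3 siRNA and 220, 359 and 405 CPM with control siRNA (samples 1 to 3). CPM are counts scaled to the library total and its TMM factor. Samples of the same number varied together and are called pairs. Of 15 fibroblast markers, 15 were detected in all 6 libraries, with a summed level of 38584 to 66038 CPM with anti-Stat3 siRNA and 32574 to 83721 CPM in controls. Other cells differed by pair. The sum of 21 macrophage markers was 46.7, 1796 and 2953 CPM with anti-Stat3 siRNA (samples 1 to 3) and 50.3, 1831 and 2555 CPM in controls 1 to 3. None of these markers was at 0 in all libraries, and 15 of the 21 were detected in each. The 19 epithelial markers summed to 249, 659 and 96.2 CPM with anti-Stat3 siRNA and 254, 682 and 95.03 CPM in controls. Neutrophil and mast cell markers summed to 1.61 to 11.5 CPM with anti-Stat3 siRNA and 2.76 to 13.9 CPM in controls, with Retnlg and Mcpt4 at 0. Lymphoid markers summed to 6.08 to 15.7 CPM with anti-Stat3 siRNA and 5.82 to 14.7 CPM in controls, with Cd3g and Cd8a at 0, and endothelial markers to 9.90 to 39.9 CPM with anti-Stat3 siRNA and 10.5 to 27.7 CPM in controls. In such bulk samples fewer cells of a type and less RNA per cell cannot be told apart.

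Silencing of Stat3 was accompanied by lower Il33 and Il1r1 transcripts and by higher Il18 and Il18bp transcripts in each of the 3 pairs, while Il1a and Il1rl1 went opposite ways in different pairs. How many members passed a threshold of 0.05 on the adjusted p depended on the test. The quasi-likelihood test of edgeR, fitted on the siRNA group without the pair and called unblocked below, called 0 of the 9 tested members, as it called 0% of all 13284 genes tested. There 3 of the 9 members, Il18bp, Il33 and Il1r1, had an unadjusted p under 0.05, beside 235 of all 13284 genes tested. With the pair as a block, edgeR also called 0 members and 0.0602% of all genes. Unblocked DESeq2 called 1 member, Il18bp, as higher, against 0.128% of all genes. DESeq2 with the pair as a block called 2 members, Il33 and Il1r1, as lower and 0 as higher, against 0.783% of all genes called lower and 0.873% called higher. In all 3 pairs 3 of the 9 members were lower (Il33, Il1r1 and Il1rap) and 2 higher (Il18 and Il18bp), where 16.4% and 17.3% of all genes were. The silenced and control samples did not overlap for Il33, which was lower, and Il18bp, which was higher, against 2.23% and 2.45% of all genes. The median log2 change of the 9 members had no stable value. It was -0.38 in unblocked edgeR, beside -0.0028 over all genes tested, and -0.07 in blocked DESeq2. In unblocked edgeR it was -0.92 without anti-Stat3 sample 1, -0.89 without control sample 2 and -0.16 without control sample 1, and in both blocked tests it was 0.29 without pair 1.

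**Figure D1:**
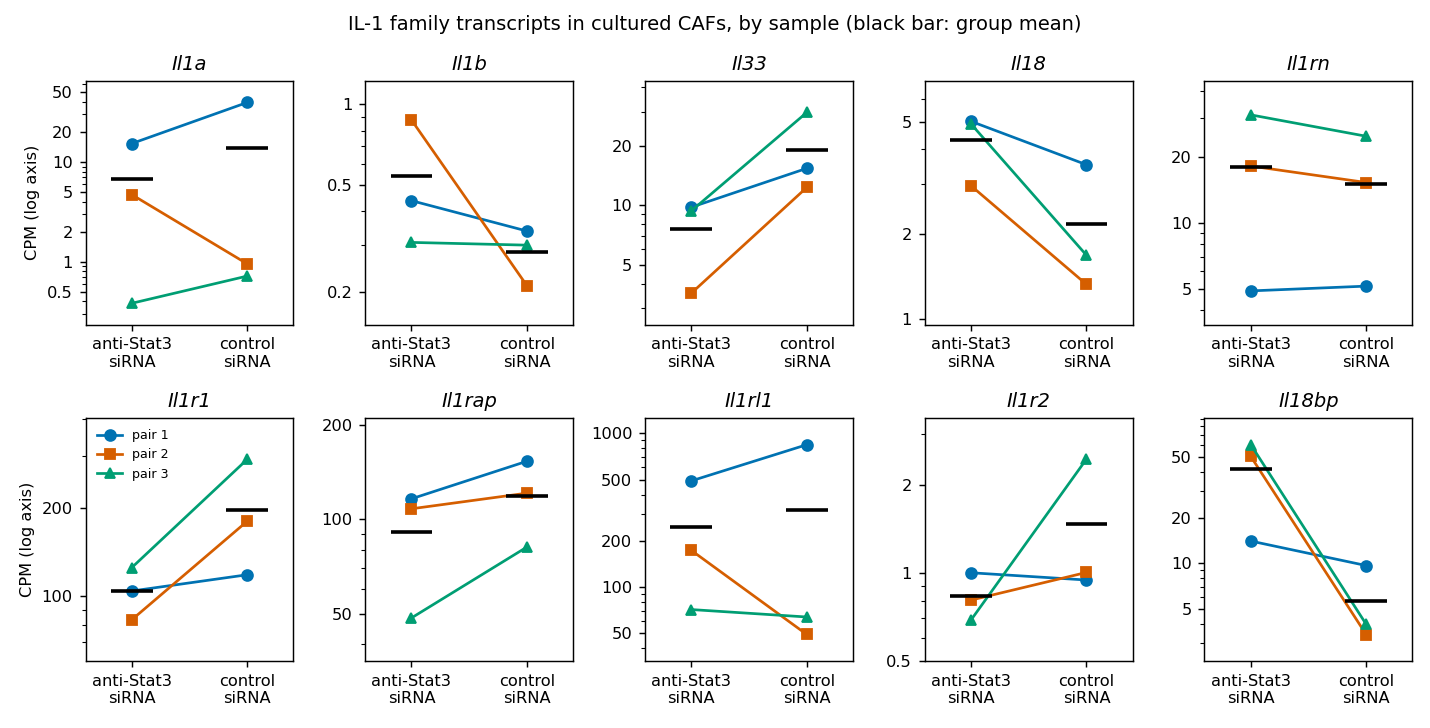
CPM of each member (log axis) in the 3 anti-Stat3 siRNA and 3 control siRNA samples, with lines joining samples of a pair and black bars at group means. In the silenced samples Il33 lies below and Il18bp above the whole range of the controls, and Il1a and Il1rl1 are highest in pair 1 in both groups.

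**Figure D2:**
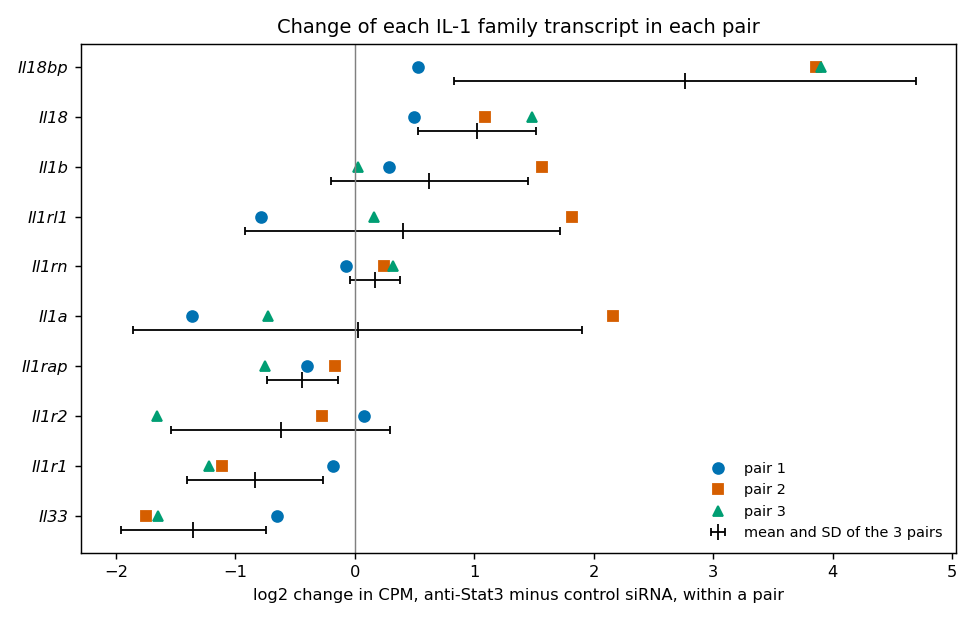
Log2 change of each member within each pair (anti-Stat3 minus control siRNA, log2 CPM with a prior count of 2), with the mean and SD of the 3 pairs in black. Il18bp spans 0.53 to 3.90, and Il1a lies on both sides of 0 with -1.36, 2.16 and -0.73.

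Among the ligands, Il33 was lower after silencing in each pair. It encodes a nuclear alarmin that stromal and barrier cells release on damage. It had 9.78, 3.57 and 9.36 CPM with anti-Stat3 siRNA (samples 1 to 3) and 15.4, 12.3 and 29.7 CPM in controls 1 to 3. Each silenced sample thus lay below each control, although the gap between the highest silenced and the lowest control sample was small. Within the pairs the log2 changes were -0.65, -1.75 and -1.65 (mean -1.35 ± 0.61, SD, n = 3 pairs), 0.64-fold, 0.30-fold and 0.32-fold. DESeq2 with the pair block gave -1.36 ± 0.27 (SE, adjusted p = 3.1e-04). The call was lost without pair 2 (-1.17, adjusted p = 0.417) or pair 3 (-1.20, adjusted p = 0.609), and neither unblocked edgeR (-1.34 ± 0.50, SE, adjusted p = 1.00) nor blocked edgeR (adjusted p = 0.153) called Il33. Without pair 1, where its change was smallest, blocked edgeR called it as well (-1.72, adjusted p = 6.3e-05). Refits without pair 1 rest on pairs 2 and 3 alone, so their p-values say little of the spread between replicates. They also called more of the whole table. Blocked edgeR then called 703 genes and blocked DESeq2 432, against 8 and 220 with all pairs.

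Il1a, the IL-1 agonist that is active as a precursor and is released from damaged or stressed cells, was dominated by pair 1. It had 15.3, 4.71 and 0.38 CPM with anti-Stat3 siRNA and 39.5, 0.95 and 0.72 CPM with control siRNA. Pair 1 and pair 3 were lower and pair 2 was higher after silencing, and pair 3 rested on 5 counts in the silenced library and 12 in the control. The controls alone spanned 54.9-fold, more than any change within a pair. The log2 change was -1.004 ± 1.71 (SE, adjusted p = 1.00) in unblocked edgeR, -0.07 ± 1.00 (adjusted p = 0.999) in blocked DESeq2 and 3.01 in edgeR without control sample 1. It therefore has no common direction in these data. Il1a exons overlap those of Gm14023 on the opposite strand over 222 bases, and whether counting used strand is not stated.

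Il1b, the agonist that inflammatory caspases cleave into its active form, was near the counting limit. It had 7, 13 and 4 counts in anti-Stat3 libraries 1 to 3 and 5, 4 and 5 counts in controls, or at most 0.88 CPM. The largest of these, 13 counts, has an exact Poisson 95% interval of 6.92 to 22.2, which overlaps that of its paired control (4 counts, 1.09 to 10.2). Such intervals cover counting error only. Il1b was higher by 0.28, 1.56 and 0.02 on the log2 scale in pairs 1 to 3, failed the filter and was not tested.

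Il18, the IL-1 family cytokine that supports interferon-γ production by lymphocytes, was low and higher after silencing in each pair. It had 5.01, 2.96 and 4.91 CPM with anti-Stat3 siRNA and 3.52, 1.32 and 1.68 CPM with control siRNA. The groups overlapped, because control sample 1 exceeded anti-Stat3 sample 2. The pair changes were 0.50, 1.09 and 1.48 on the log2 scale, 1.41-fold to 2.79-fold. They did not pass in unblocked edgeR (0.98 ± 0.47, SE, adjusted p = 1.00), in blocked edgeR (adjusted p = 0.202) or in blocked DESeq2 (1.06 ± 0.39, SE, adjusted p = 0.186). Without pair 1, where its change was smallest, blocked edgeR called Il18 as higher (1.36, adjusted p = 0.019) and blocked DESeq2 did not (adjusted p = 0.355).

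Of the inhibitors, Il18bp showed the widest difference of any member. Its product is a secreted protein that neutralises IL-18, and the gene is known to be induced by interferon-γ. It had 14.0, 50.9 and 60.8 CPM with anti-Stat3 siRNA and 9.67, 3.39 and 3.96 CPM in controls. Each silenced sample exceeded each control, with 1.45-fold in pair 1 and 14.5-fold and 14.9-fold in pairs 2 and 3. The log2 change was 2.89 ± 0.67 (SE, unadjusted p = 0.0044, adjusted p = 1.00) in unblocked edgeR and 2.89 ± 0.63 (SE, adjusted p = 0.0073) in unblocked DESeq2. With the pair as a block it did not pass in DESeq2 (2.91 ± 0.95, SE, adjusted p = 0.101) or in edgeR (adjusted p = 0.182). Without pair 1 it passed in both blocked tests, DESeq2 (3.93, adjusted p = 1.1e-44) and edgeR (3.92, adjusted p = 7.5e-09). Those refits drop the pair with the smallest change and rest on pairs 2 and 3 alone, so their p-values say little of the spread between replicates. Of a list of 32 interferon-stimulated genes, edgeR called 0 without and 0 with the block, beside 0% and 0.0602% of all genes. Unblocked DESeq2 called 3 higher, beside 0.128% of all genes called in either direction, and gave no p for some of the 32. With the block DESeq2 called 3 higher, beside 0.873% of all genes. These calls were partly different genes, as Cxcl9 and Cxcl10 passed only with the block. The median level of the 32 genes was 124, 183 and 157 CPM with anti-Stat3 siRNA and 112, 18.9 and 18.9 CPM in controls, so that control 1 lay near the silenced samples in these genes. The part of these genes in the Il18bp difference was not tested. Exons of Il18bp and Numa1 overlap on opposite strands over 80 bases, which adds uncertainty to its counts.

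Il1rn, the receptor antagonist, followed the pair rather than the siRNA. It had 4.89, 18.1 and 31.0 CPM with anti-Stat3 siRNA and 5.14, 15.2 and 24.8 CPM with control siRNA. The pair changes were -0.07, 0.25 and 0.32 on the log2 scale, while the silenced samples spanned 6.34-fold and the controls 4.82-fold. Neither unblocked edgeR (0.26 ± 0.77, SE, adjusted p = 1.00) nor blocked DESeq2 (0.19 ± 0.20, SE, adjusted p = 0.999) called it. The pairs rank in the same order by Il1rn and by the summed macrophage markers given above, and the part of macrophages in its level was not tested.

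**Figure D3:**
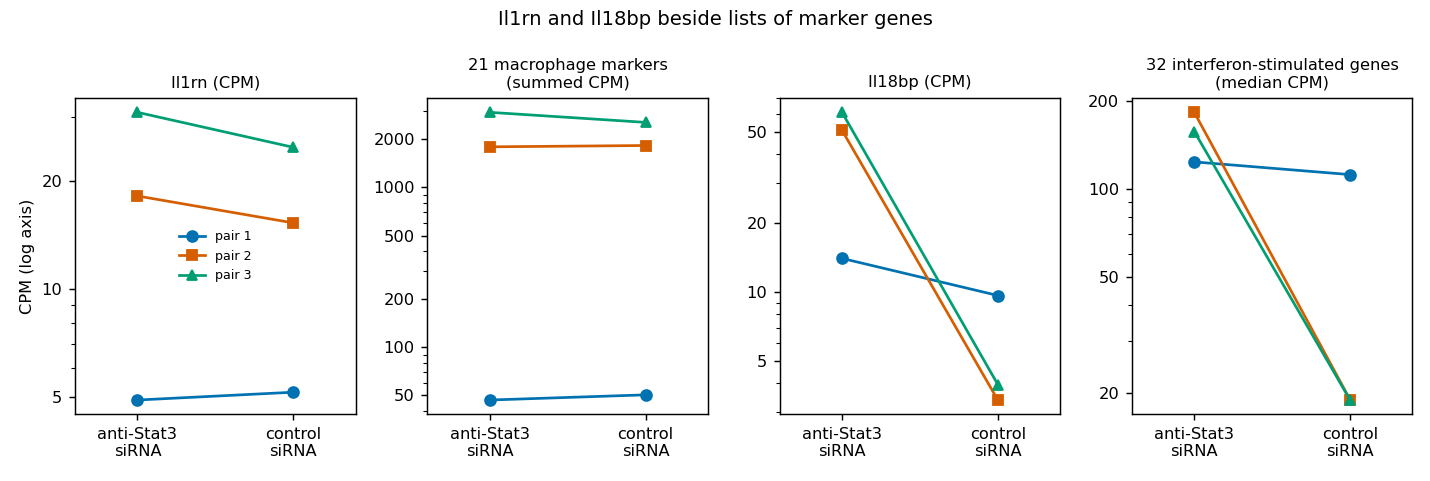
Il1rn, the summed CPM of 21 macrophage markers, Il18bp and the median CPM of 32 interferon-stimulated genes (log axes) in anti-Stat3 and control siRNA samples, with lines joining pairs. Il1rn and the macrophage markers are lowest in pair 1 in both groups, and Il18bp and the interferon-stimulated genes are highest among the controls in control sample 1.

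Il1r2, the decoy receptor, was barely expressed, with 1.00, 0.81 and 0.69 CPM with anti-Stat3 siRNA and 0.95, 1.01 and 2.46 CPM in controls. Only pair 3 stood apart, with 9 counts (95% Poisson interval 4.12 to 17.1) in the silenced library and 41 counts (29.4 to 55.6) in its control. The change did not pass in unblocked edgeR (-0.81 ± 0.50, SE, adjusted p = 1.00) or in blocked DESeq2 (-0.68 ± 0.63, SE, adjusted p = 0.999). Without control sample 3 it was -0.22 in unblocked edgeR.

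Among the receptor chains, Il1r1, the signalling receptor for both IL-1 agonists, had 104, 83.1 and 125 CPM with anti-Stat3 siRNA and 118, 180 and 292 CPM in controls. The silenced samples stayed within a narrow band, a 1.504-fold span against 2.47-fold in the controls, and the groups overlapped only through control sample 1 and anti-Stat3 sample 3. The pair changes were -0.18, -1.11 and -1.22, or 0.88-fold in pair 1 and 0.46-fold and 0.43-fold in pairs 2 and 3. It fell by 0.84 ± 0.21 (SE) on the log2 scale in blocked DESeq2 (adjusted p = 0.0084). The call was lost without pair 2 (-0.71, adjusted p = 0.987) or pair 3 (-0.64, adjusted p = 1.00), and Il1r1 did not pass in unblocked edgeR (-0.92 ± 0.35, SE, adjusted p = 1.00) or with the block (adjusted p = 0.185). Without pair 1, where its change was smallest, it passed in both blocked tests (-1.16, adjusted p = 1.4e-07 in DESeq2, and -1.17, adjusted p = 3.3e-04 in edgeR). These refits rest on pairs 2 and 3 alone, so their p-values say little of the spread between replicates.

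Il1rap, the accessory chain shared by the IL-1 and IL-33 receptors, differed less. It had 116, 108 and 48.4 CPM with anti-Stat3 siRNA and 153, 121 and 81.6 CPM with control siRNA. The 3 pairs were lower by 0.40, 0.17 and 0.75 on the log2 scale and the groups overlapped. The change of -0.43 ± 0.16 (SE) in blocked DESeq2 did not pass (adjusted p = 0.203), nor did that in unblocked edgeR (-0.38 ± 0.39, SE, adjusted p = 1.00) or with the block (adjusted p = 0.259). Its exons overlap those of Gm20319 on the opposite strand over 353 bases.

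Il1rl1, which encodes the IL-33 receptor ST2 in membrane-bound and secreted forms, varied more between pairs than between siRNAs. It had 491, 173 and 71.2 CPM with anti-Stat3 siRNA and 844, 49.0 and 63.7 CPM in controls. Pair 1 was lower after silencing (0.58-fold), pair 2 higher (3.53-fold) and pair 3 nearly level (1.12-fold), while the controls spanned 17.2-fold. The sign of its log2 change followed the test: -0.38 ± 1.22 (SE, adjusted p = 1.00) in unblocked edgeR, 0.38 ± 0.43 (SE, adjusted p = 0.797) in blocked edgeR and 0.38 ± 0.69 (SE, adjusted p = 0.999) in blocked DESeq2. Mast cells carry ST2. Of their listed markers, Mcpt4 was at 0 in all libraries, and Cpa3, Tpsb2 and Cma1 had at most 1 count in any. Ms4a2 had 2, 6 and 3 counts with anti-Stat3 siRNA and 2, 3 and 0 counts with control siRNA. Kit, which other cells also express, had 1.32, 9.83 and 0.46 CPM with anti-Stat3 siRNA and 2.30, 10.1 and 0.42 CPM with control siRNA. The part of mast cells in the Il1rl1 level was not tested.

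Il1r2, Il1r1, Il1rl2, Il1rl1, Il18r1 and Il18rap are receptor genes of 1 cluster on chromosome 1, and they did not move as a block. Il1rl2, the receptor for the IL-36 ligands, had 20.5, 24.4 and 18.5 CPM with anti-Stat3 siRNA and 21.6, 24.2 and 28.8 CPM in controls (-0.23 ± 0.20, SE, adjusted p = 0.999 in blocked DESeq2). Il18rap, the accessory chain of the IL-18 receptor, had 9.03, 6.94 and 4.99 CPM with anti-Stat3 siRNA and 10.96, 3.23 and 1.80 CPM with control siRNA. Its ligand-binding partner Il18r1 had 1.94, 2.63 and 0.08 CPM with anti-Stat3 siRNA and 2.23, 3.76 and 0.48 CPM with control siRNA. Neither passed in blocked DESeq2 (adjusted p = 0.627 for Il18rap and 0.990 for Il18r1). These 3 were the tested ones of 11 further family genes in the table, and the rest did not pass the filter.

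Levels of different members were set beside each other only per length, as CPM per kilobase of annotated exon. Over all 6 samples the order by mean was Il1rl1, Il1r1, Il1rap, Il18bp, Il1rn, Il1a, Il33, Il18, Il1r2 and Il1b. Il1rl1 averaged 35.8 ± 31.99 CPM per kilobase with anti-Stat3 siRNA and 46.7 ± 66.6 with control siRNA (SD, n = 3 each). Il1r1 averaged 17.0 ± 3.42 CPM per kilobase with anti-Stat3 siRNA and 32.1 ± 14.4 with control siRNA. Il1b, the lowest, averaged 0.40 ± 0.22 CPM per kilobase with anti-Stat3 siRNA and 0.21 ± 0.048 with control siRNA. The ranges over the 6 samples overlapped for each pair of neighbours in this order, so no neighbour stood clear of the next. The order also depended on the group and on the summary. Il18bp averaged 13.9 CPM per kilobase with anti-Stat3 siRNA, above Il1rap at 10.6, and 1.87 with control siRNA, below Il1rn, Il1a, Il33 and Il18. By medians over the 6 samples Il1r1 (19.9 CPM per kilobase) came above Il1rl1 (17.9), Il1rn (6.16) and Il33 (4.24) above Il18bp (3.92), and Il33 and Il18 (3.14) above Il1a (1.44).

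Ratios within a sample, per length, set each ligand against its inhibitor or receptor. Il1rn transcripts were 0.22, 2.21 and 27.2 times those of the agonists Il1a and Il1b together in anti-Stat3 samples, and 0.094, 8.82 and 15.6 times in controls. In pair 1 the agonists thus exceeded the antagonist in both groups, and in pairs 2 and 3 the antagonist exceeded the agonists. Between the siRNAs this ratio moved in no common direction (2.39-fold, 0.25-fold and 1.74-fold). Il18bp was 0.95, 5.85 and 4.22 times Il18 with anti-Stat3 siRNA and 0.94, 0.87 and 0.80 times with control siRNA, close to level in each control. Il1rl1 was 19.1, 18.5 and 2.90 times its ligand Il33 in anti-Stat3 samples and 20.9, 1.52 and 0.82 times in controls, so that this ratio was 12.2-fold and 3.55-fold higher after silencing in pairs 2 and 3 and 0.92-fold in pair 1. With 3 samples per group no exact two-sided test of such a ratio can give a p under 0.1, and none was made.

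**Figure D4:**
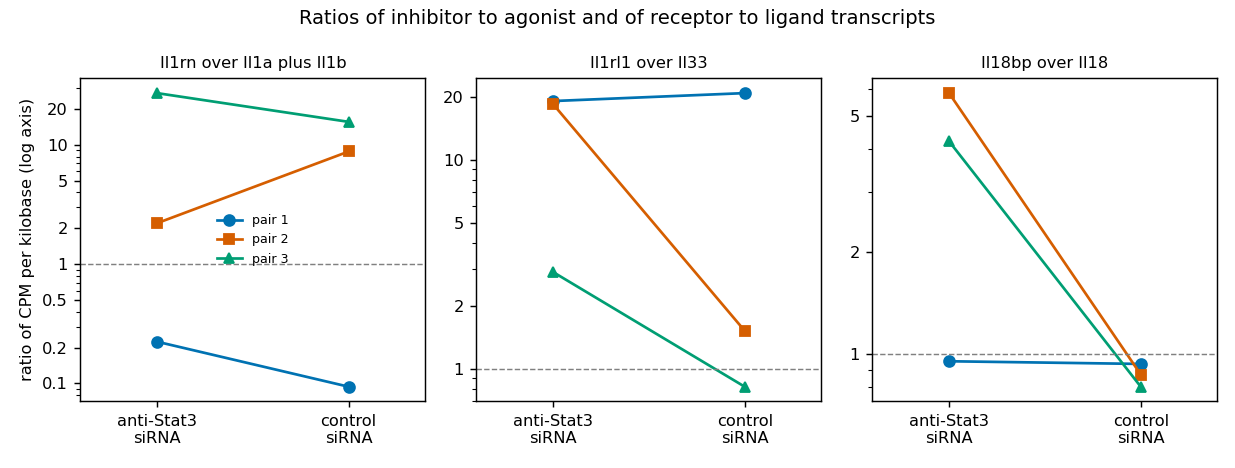
Ratios of CPM per kilobase (log axes) of Il1rn to the agonists Il1a plus Il1b, of Il1rl1 to Il33 and of Il18bp to Il18 in anti-Stat3 and control siRNA samples, with lines joining pairs and a dashed line at 1. The Il18bp to Il18 ratio lies near 1 in the 3 controls and in anti-Stat3 sample 1 and at 5.85 and 4.22 in anti-Stat3 samples 2 and 3.

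Transcripts known to be induced by IL-1 in fibroblasts were lower in part. Of 30 listed genes 29 passed the filter, with a median of -0.50 on the log2 scale in unblocked edgeR beside -0.0028 over all genes, and pair medians of -0.43, 0.0046 and -0.81. That median rested on single libraries: in unblocked edgeR it was 0.86 without control sample 1, -1.43 without anti-Stat3 sample 1, -0.05 without anti-Stat3 sample 3 and -0.998 without control sample 3. In all 3 pairs 13 were lower and 3 higher, beside 16.4% lower and 17.3% higher over all genes. Blocked DESeq2 called 9 lower and 0 higher, beside 0.783% and 0.873% of all genes. This list, like the other gene lists here, was chosen with earlier results of these data known, so such shares are a description only. Unblocked DESeq2 called 0, beside 0.128% of all genes, and gave no p for some of the list, Il6 and Cxcl1 among them. The edgeR test called 0 without and 0 with the block. Refitted without pair 2, blocked DESeq2 called 5 genes of the list lower, beside 12 of 13340 genes over the whole table. Without pair 3 it called 3 lower, beside 13 of 13576. Without pair 1 it called 7 lower and 1 higher, beside 158 lower and 274 higher of 13529. Without pair 1 blocked edgeR called 9 lower and 2 higher, beside 295 lower and 408 higher of 13529. Whether these are the same genes was not compared. The 9 called with all pairs are Il6, Mmp13, Mmp3, Has2, Steap4, Lcn2, Cxcl1, Bdkrb1 and Sod2. Several of these, Il6 and Mmp13 among them, are named by the series itself or known as STAT3 targets, so the list is not independent evidence about IL-1.

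Il6, which signals through STAT3 in its turn, had 265, 13.7 and 8.98 CPM with anti-Stat3 siRNA and 525, 29.4 and 26.02 CPM with control siRNA, a change of -1.18 ± 0.17 (SE, blocked DESeq2, adjusted p = 1.5e-09). The level differed far more between pair 1 and the others than between the siRNAs. Among secreted proteins, the collagenase Mmp13 (-1.72 ± 0.32, SE), the stromelysin Mmp3 (-1.85 ± 0.46, SE) and the neutrophil chemokine Cxcl1 (-0.75 ± 0.20, SE) also fell in that test.

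Has2, which makes hyaluronan, had 117, 74.8 and 52.0 CPM with anti-Stat3 siRNA and 155, 187 and 169 CPM with control siRNA, with no overlap, and fell by 1.14 ± 0.23 (SE, blocked DESeq2, adjusted p = 3.1e-04). Steap4, a metalloreductase, had 1.63, 5.05 and 1.61 CPM with anti-Stat3 siRNA and 2.84, 17.7 and 7.61 CPM with control siRNA, a change of -1.65 ± 0.35 (SE, adjusted p = 6.2e-04). Bdkrb1, the bradykinin B1 receptor, had 11.8, 2.69 and 2.61 CPM with anti-Stat3 siRNA and 21.2, 5.61 and 4.86 CPM with control siRNA, and its 3 pairs changed by similar amounts (-0.84, -1.02 and -0.87). Lcn2, an iron-sequestering lipocalin, fell by 0.62 ± 0.14 (SE, adjusted p = 0.0019) and Sod2, the mitochondrial superoxide dismutase, by 0.51 ± 0.15 (SE, adjusted p = 0.048) on the log2 scale in the same test. Lcn2 had 164, 720 and 16.4 CPM with anti-Stat3 siRNA and 230, 1069 and 29.8 CPM with control siRNA. The pairs rank in the same order by Lcn2 and by the summed epithelial markers given above. The part of epithelial cells in the Lcn2 level was not tested. The summed level of the 30 genes was 14531, 5390 and 3307 CPM with anti-Stat3 siRNA and 18762, 4397 and 3451 CPM in controls, highest in pair 1. Pair 1 also had the highest Il1a and Il1rl1 and the lowest summed macrophage markers. The part of Il1a in the level of these genes was not tested.

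None of the signalling genes below the receptor passed a test. All 25 of its listed genes were tested, and each of the 4 tests called 0 of them. In all 3 pairs 8 were lower and 0 higher, beside 16.4% lower and 17.3% higher over all genes. Their median was -0.029 on the log2 scale in unblocked edgeR. Map3k8, a kinase upstream of ERK, had the smallest p, with 8.90, 8.96 and 7.52 CPM with anti-Stat3 siRNA and 10.6, 15.2 and 11.9 CPM in controls (-0.56 ± 0.23, SE, blocked DESeq2, adjusted p = 0.335). Irak3, the inhibitory IRAK, had 16.8, 14.2 and 26.4 CPM with anti-Stat3 siRNA and 21.7, 22.8 and 31.6 CPM with control siRNA (-0.43 ± 0.19, SE, adjusted p = 0.366). Sqstm1 (0.26 ± 0.20, SE), a scaffold for TRAF6, and Mapk8 (-0.18 ± 0.16, SE), the kinase JNK1, followed.

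Genes that process and release the cytokines had 18 of 22 members tested, a median change of 0.14 on the log2 scale in unblocked edgeR, and 7 higher and 2 lower in all 3 pairs, beside 17.3% and 16.4% of all genes. The median was 0.0073 without anti-Stat3 sample 2. Blocked DESeq2 called 1 higher, beside 0.873% of all genes, and unblocked DESeq2 and edgeR without and with the block called 0. The gene called, Gsdmd, forms the membrane pore through which IL-1β and IL-18 leave the cell. It had 82.1, 57.8 and 104 CPM with anti-Stat3 siRNA and 61.7, 37.6 and 44.7 CPM with control siRNA, so the groups overlapped. Its change was 0.75 ± 0.19 (SE, adjusted p = 0.0094) in blocked DESeq2 and did not pass in blocked edgeR (adjusted p = 0.170). Without pair 2 or pair 3 blocked DESeq2 called 0 genes of this list. Casp1, the protease that matures IL-1β and IL-18, had 31.6, 41.9 and 40.7 CPM with anti-Stat3 siRNA and 32.4, 22.5 and 19.8 CPM with control siRNA, level in pair 1 and higher in pairs 2 and 3 (0.63 ± 0.23, SE, adjusted p = 0.186). Pycard, the inflammasome adaptor, had 1.82, 4.65 and 8.67 CPM with anti-Stat3 siRNA and 1.35, 3.28 and 4.08 CPM with control siRNA and did not pass (adjusted p = 0.582).

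**Figure D5:**
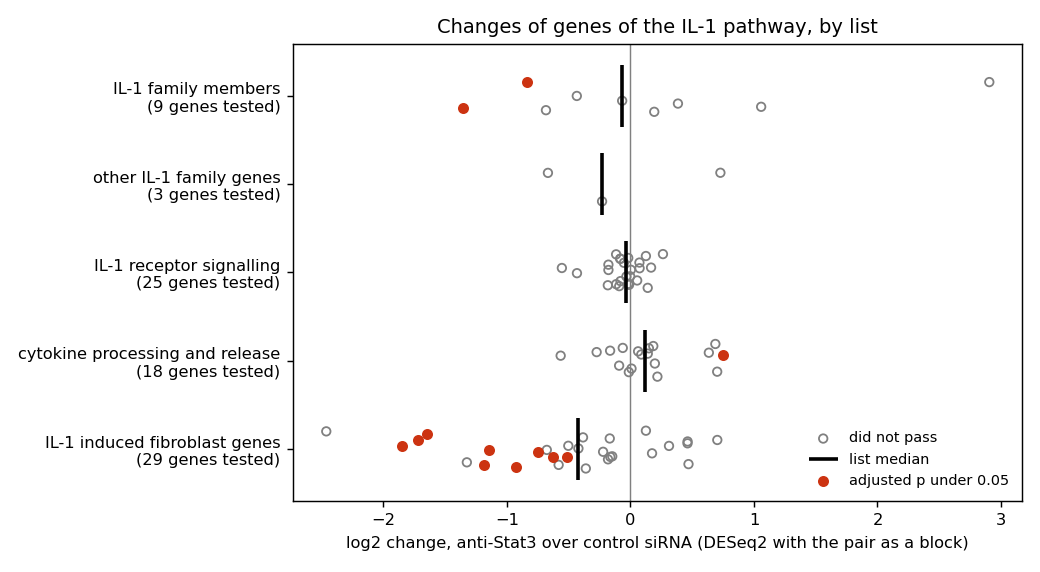
Log2 change (anti-Stat3 over control siRNA, DESeq2 with the pair as a block) of each tested gene in 5 lists, with filled points at an adjusted p under 0.05 and black lines at list medians. The family members hold 2 filled points, both below 0, the IL-1 induced genes hold 9, all below 0, and the signalling genes hold none.

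All 32 interferon-stimulated genes used above were higher in all 3 pairs, beside 17.3% of all genes. They share the same 3 pairs and are not separate cases. The list was chosen with earlier results of these data known, so its share is a description only. The pair medians of the 32 genes were 0.35, 3.09 and 3.30. Blocked DESeq2 called 3 of them higher, beside 0.873% of all genes. Without pair 1 it called 32 higher, beside 274 of 13529 genes over the whole table. Without pair 2 or pair 3 it called 0, beside 2 of 13340 and 7 of 13576 genes higher. Cxcl9, a chemokine for T cells, had 23.5, 223 and 107 CPM with anti-Stat3 siRNA and 15.8, 0.58 and 0.36 CPM with control siRNA. Psmb9, an immunoproteasome subunit, had 13.9, 38.7 and 82.7 CPM with anti-Stat3 siRNA and 5.21, 2.86 and 2.76 CPM with control siRNA. Cxcl10 was the other gene called, and Irf9, with the next smallest p, did not pass (0.69 ± 0.21, SE, adjusted p = 0.055).

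The genes with profiles most like each member were found by Pearson's r of log2 CPM over the 6 samples, among genes whose log2 CPM averaged 1 or more. The pairs differ strongly, and r serves only as a description. Il33 was most like Artn, Brinp3 and Adamts9 (r = 0.992, 0.987 and 0.985), and Il1r1 like Ankrd55, Rtn4rl2 and Gls2 (0.993, 0.990 and 0.988). Il18bp was most like the guanylate-binding proteins Gbp2b and Gbp4 and the gene Gm4841 (0.995, 0.995 and 0.991), and Il18 like Ifi35, Ogfr and B3gnt1 (0.992, 0.987 and 0.987). Il1rn was most like Frmd4b, Dok3 and Ptpn7 (0.998, 0.998 and 0.996), and Ptpn7 had 0.81, 5.79 and 10.97 CPM with anti-Stat3 siRNA and 0.74, 4.76 and 10.3 CPM in controls. Il1a was most like Gm6634, Ets1 and Mtpn (0.998, 0.995 and 0.994), Il1rl1 like Mb21d1, Rrp8 and Nmd3 (0.997, 0.996 and 0.994), Il1rap like Cep76, Acer3 and Zc3h12c (0.997, 0.997 and 0.996) and Il1r2 like Sec24d, Cwc25 and Irak1 (0.988, 0.983 and 0.979). Among the members themselves r was highest between Il1a and Il1rl1 (0.970), which share the high level of pair 1, and was 0.863 between Il1r1 and Il33. Il1a and Il1rn were opposed (-0.921).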

How the data were processed

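TRIzol-extracted, poly(A)-selected RNA went into TruSeq libraries (per the labels' protocols). The submitters' processing notes name TopHat2 2.0.10, HTSeq and the build mm9. What the authors deposited are raw counts per gene symbol in 6 columns, whose names read sh where the labels say siRNA and match the samples by group and number. The strand setting is not stated, and 0 per-sample columns were left unused. From these, genes were compared by the quasi-likelihood test of edgeR 4.0.16 under R 4.3.3 (TMM scaling, filterByExpr with a minimum count of 10 and total of 15, 13284 genes, group as the only term, Benjamini-Hochberg adjustment over all genes). DESeq2 1.42.0 and fits with the pair as a block were alternatives. The SE of an edgeR change is the change divided by the square root of its F. The tests were tried on simulated data with the same change in each pair, and so not on changes that differ between pairs. The limit set by 3 counts was 0.159 to 0.230 CPM per library (counting error only).

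Samples that share a number in their titles deviated together from their group means (r = 0.83, 0.82 and 0.83, against -0.16 or below for others), so the numbers were taken as pairs, and blocked values are given. Centring each group on its mean forces a lower r for the others where that for the same number is high, so the contrast itself adds little. What a number shares is not stated, and p-values may measure technical spread. The descriptions of pair 3 follow another naming scheme; changes are given by pair. Exon lengths came from GENCODE M21 and promoters from RefSeq, both on another build, GRCm38. Members and gene lists were chosen with earlier results of these data known. Named are all members, Stat3, the genes called in blocked DESeq2 and up to 4 of each pathway list by p in that test, and the 3 genes most like a member. Mast cell markers and genes at 0 were named after their values were seen. A gene that this rule names is not reported here.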

Additional observations from a re-analysis of the deposited data

How the results depend on the processing

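The counts of calls depended on the test, the cause of which was not tested. Over the whole table edgeR with the group alone called 0 genes (235 at an unadjusted p under 0.05), edgeR with the replicate block 8, DESeq2 17 and DESeq2 with the replicate block 220; with samples or pairs left out the count ranged from 0 to 703. Of the members, DESeq2 called 1 and DESeq2 with the replicate block 2, and 0 to 4 with samples or pairs left out. For the IL-1 induced genes the count was 9 in DESeq2 with the replicate block and 0 to 11 with samples left out. For cytokine processing and release it was 1 and 0 to 4. Each other test on all samples called 0 genes of these lists. For other family genes the count was 0 to 1. For interferon-stimulated genes it was 3 in DESeq2, 3 partly different ones with the replicate block and 0 to 32 with samples left out. The highest of each was without pair 1. RLE scaling and no filter called 0 members. The sign of Il1rl1 turned with the replicate block (0.38 in edgeR and in DESeq2); with samples or pairs left out its log2 change ranged from -1.39 to 2.12, that of Il1a from -2.42 to 3.01 and that of Il1rn from -0.39 to 0.82. The other 6 tested members kept their sign under each alternative. Il1b and, in part, Il1r2 are limited by depth.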
